A study of Mus musculus with 4 samples.

Results

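Growth factors and cytokines reach AP-1 through the MAP kinase cascade, in which receptors load RAS with GTP, RAS recruits RAF, and RAF activates MEK, which activates ERK. ERK and the related stress kinases JNK and p38 phosphorylate FOS and JUN family proteins, the subunits of AP-1. The cascade limits itself. The dual specificity phosphatases encoded by the Dusp genes remove the activating phosphates from ERK, JNK or p38, and the Sprouty (Spry) and Spred proteins act further up, between the receptor and RAF. Many of these genes are switched on by the very signal they dampen, and RUNX1, the transcription factor that blood cells need to emerge from hemogenic endothelium, was mapped here in cells where AP-1 can be blocked. The loci described are those of 10 such genes, Dusp1, Dusp2, Dusp4, Dusp5, Dusp6, Dusp10, Spry1, Spry2, Spry4 and Spred1.

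The cells were floating haematopoietic progenitors, obtained in vitro on day 2 of culture from mouse embryonic stem cells (ESCs) that carry a Tet-on dominant-negative FOS (dnFOS), a protein that doxycycline (DOX) induces and that binds partners of FOS without letting the pair bind DNA. All 4 libraries share this genotype, those without DOX included. There are 2 RUNX1 ChIP libraries, labelled with and without DOX, and 2 libraries labelled H3K27me3, the histone mark that Polycomb complexes place on silent genes. Each condition is 1 library, so no difference below has a replicate check and no test was made.

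The labels do not settle which RUNX1 library was treated, because the run name kept with each peak list gives the opposite treatment to the label. Each therefore goes by its label below, as the library labelled +DOX or -DOX, and every ratio between them turns into its inverse if the run names are right. In the H3K27me3 pair title and treatment field contradict each other, so these are named by title (untr and DOX), and no DOX effect is read from them. The protocol text names only an antibody to RUNX1, also for these.

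Peaks were taken where the summit fell in the gene body of GENCODE vM21 or within 50 kb of it, on the mm10 build. This gave 37 of 21831 peaks of the library labelled +DOX and 29 of 18389 of the library labelled -DOX, and 9 of 6356 and 9 of 7233 H3K27me3 peaks of the libraries titled untr and DOX. With summits extended by 200 bp and overlapping stretches merged, the RUNX1 peaks formed 39 sites of 24972 in the genome. Of these, 24 had a summit in both lists, 11 only in the list labelled +DOX and 4 only in the list labelled -DOX. The nearest transcription start was that of the feedback gene itself at 21 of the 39 sites. The site closest to the window's edge on the inside lay 49.4 kb from Dusp5 with 15 reads at its summit, and the closest on the outside 57.8 kb from the same gene with 27.

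For each peak the lists give the fold enrichment over local background and a -log10 q value, where q is the p-value of the peak caller adjusted for the number of positions tested. The fold and the unadjusted p-value together also return the pileup, the whole number of reads stacked at the summit, with the local background expected there. The background of the genome as a whole was 2.59 reads per position in the library labelled +DOX and 2.70 for the one labelled -DOX, so the 2 were of similar depth, and ratios of pileups below are scaled by these values. The ratio of a shared site compares the highest pileup of each list in the merged stretch. The summits compared can thus lie at different positions. Pileup intervals are exact Poisson and ratio intervals exact binomial, at 95%, and cover counting error only. In a bulk sample a lower pileup may mean fewer cells with RUNX1 at a site or less RUNX1 there per cell, which cannot be told apart. A percentile is the place of a peak's -log10 q in its own list, with 100 the strongest.

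Every one of the 10 genes had at least 1 RUNX1 site shared by both lists. Over all 21938 protein-coding genes, 69.4% did. In a tighter window, 8 of the 10 had a shared site within 1500 bp of one of their annotated starts, against 39.1% of all genes. Dusp4 and Spry4 were the ones without. The windows held between 2 sites (Spred1) and 7 (Dusp1), with a median of 3.5 against 3 for all genes, and 3.20 sites per 100 kb of window against 1.84. Dusp1 reaches 7 only with its long GENCODE body, and 1 of the 7 had Dusp1 as its nearest start. The feedback genes thus lay in the body of the distribution and not at its end. The share of all genes with fewer sites ran from 35.4% (Spred1) to 87.4% (Dusp1). It was 48.6% for Dusp6, Dusp10, Spry2 and Spry4, which had 3 each. By sites per 100 kb, the share of genes with a lower value ran from 39.9% (Spred1) to 85.7% (Dusp2). Only Spred1 was below the median of all genes.

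**Figure D1:**
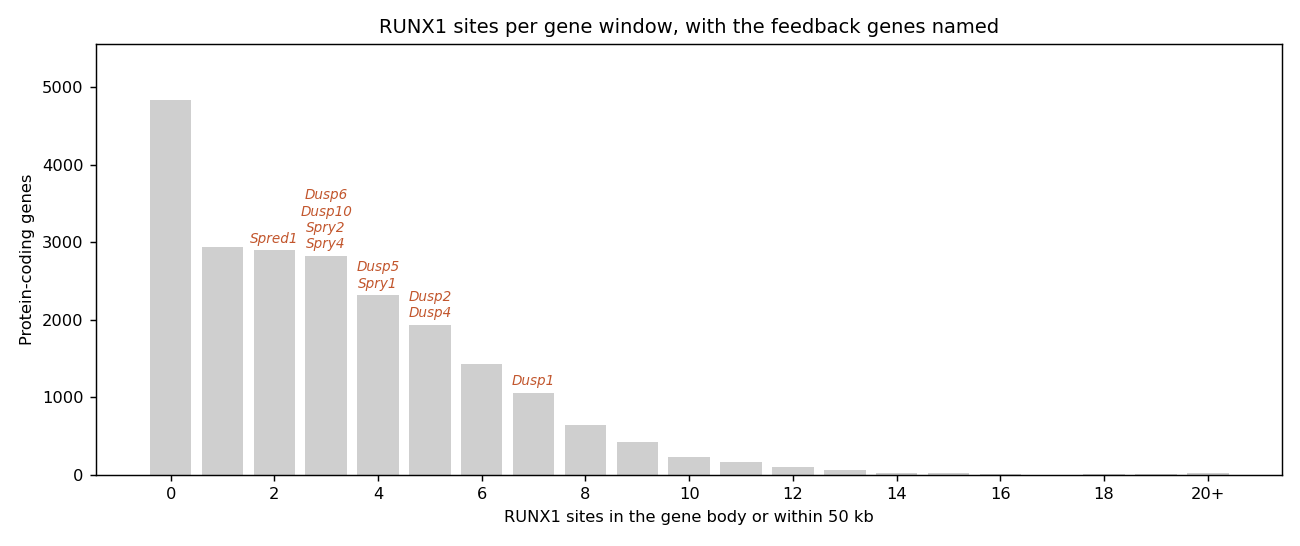
Number of RUNX1 sites in the gene body or within 50 kb (x axis, 20 and above pooled) for all protein-coding genes (y axis, grey bars), with the names of the feedback genes above the bar that holds them. The 10 genes fall between 2 sites (Spred1) and 7 (Dusp1, counted with its long GENCODE body), beside 4834 genes with 0.

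**Figure D2:**
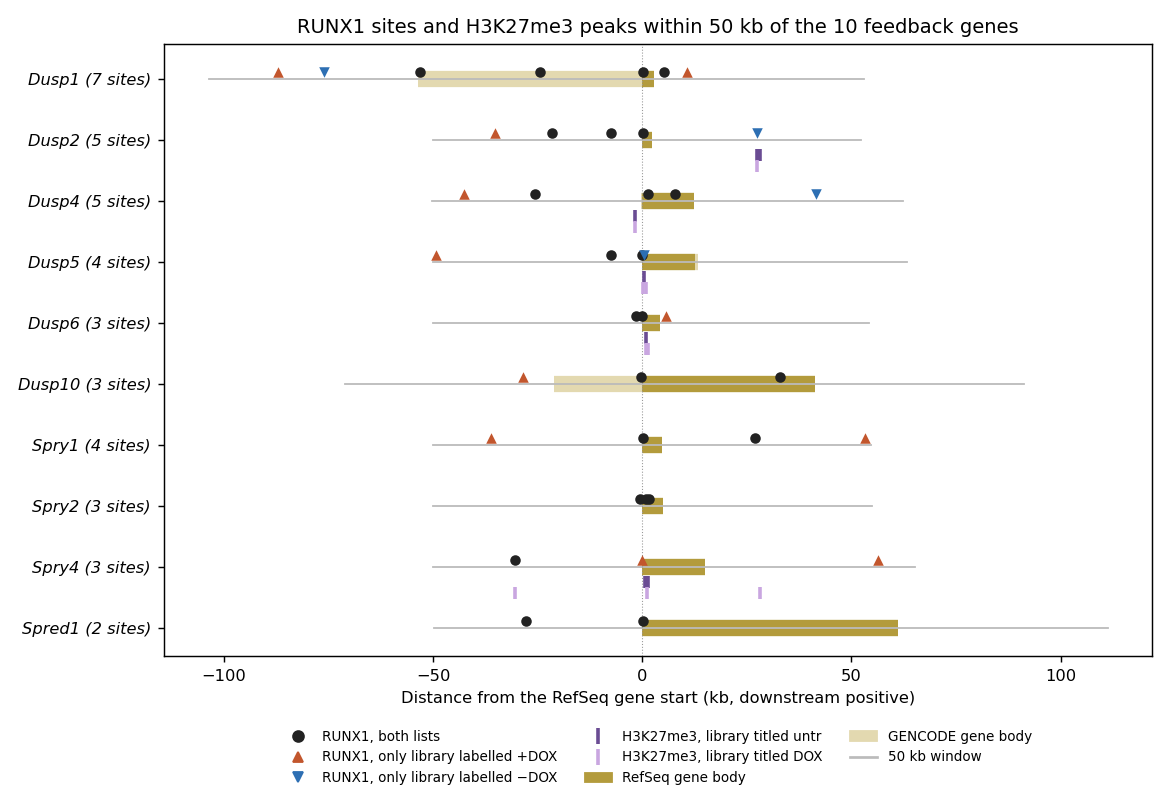
Position of each RUNX1 site and H3K27me3 peak (distance from the RefSeq gene start in kb, x axis) for each gene (y axis). Black circles mark sites in both RUNX1 lists, triangles sites in 1 list, vertical ticks H3K27me3 summits, brown bars gene bodies and grey lines the windows. Each gene but Dusp4 and Spry4 has a shared site within 1500 bp of a start, and most triangles lie further out.

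The sequences that follow are a choice among the sites described: shared sites away from the start of Dusp4, Dusp5, Dusp10, Spred1 and Dusp2, the strongest site that only 1 list had, and 2 gene starts. Each is read from the plus strand of GRCm38 (mm10), 75 bases to either side of the summit, and cut short where an untranslated region begins. Capitals mark matches on either strand to the RUNX motif (spelled TGTGGT, with TGCGGT as the other form), to that of ETS factors (spelled CCGGAA, with CAGGAA as the other form, and a purine after it), to GATA (spelled AGATAA), C/EBP (spelled TTGCNNAA) and PU.1 (spelled GAGGAAGT), to the core of the cyclic AMP response element (spelled TGACGT), to AP-1 (spelled TGAGTCA, with TGACTCA as the other form) and to the CArG box of serum response factor.
Dusp4, 25.3 kb upstream, chr8:34781961-34782111: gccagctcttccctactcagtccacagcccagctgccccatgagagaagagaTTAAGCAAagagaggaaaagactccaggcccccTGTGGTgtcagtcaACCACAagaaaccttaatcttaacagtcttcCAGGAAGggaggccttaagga
Dusp4, 42.2 kb upstream, only in the list labelled +DOX, chr8:34765004-34765154: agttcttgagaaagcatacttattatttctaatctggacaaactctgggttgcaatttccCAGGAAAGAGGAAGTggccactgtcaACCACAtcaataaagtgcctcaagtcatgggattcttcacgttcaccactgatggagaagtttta
Dusp5, 7.4 kb upstream, chr19:53521594-53521744: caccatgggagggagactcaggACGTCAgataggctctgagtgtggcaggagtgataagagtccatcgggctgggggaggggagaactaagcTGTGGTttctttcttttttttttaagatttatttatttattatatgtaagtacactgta
Dusp10, 32.8 kb into the gene, chr1:184067127-184067277: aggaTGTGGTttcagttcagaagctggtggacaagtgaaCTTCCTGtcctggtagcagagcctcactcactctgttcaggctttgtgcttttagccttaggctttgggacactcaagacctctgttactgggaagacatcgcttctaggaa
Spred1, 28.1 kb upstream, chr2:117093172-117093322: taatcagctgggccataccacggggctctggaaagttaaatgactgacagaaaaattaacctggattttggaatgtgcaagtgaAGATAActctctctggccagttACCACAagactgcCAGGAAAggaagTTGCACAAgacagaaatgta
Dusp2, 7.5 kb upstream, chr2:127328578-127328728: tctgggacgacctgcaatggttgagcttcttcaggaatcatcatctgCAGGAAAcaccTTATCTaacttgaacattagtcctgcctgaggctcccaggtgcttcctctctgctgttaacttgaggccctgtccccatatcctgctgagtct
Dusp5, start of the gene, chr19:53528959-53529108: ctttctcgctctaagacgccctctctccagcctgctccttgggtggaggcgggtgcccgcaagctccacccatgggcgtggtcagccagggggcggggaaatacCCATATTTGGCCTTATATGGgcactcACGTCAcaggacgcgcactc
Dusp6, start of the gene, chr10:99263049-99263199: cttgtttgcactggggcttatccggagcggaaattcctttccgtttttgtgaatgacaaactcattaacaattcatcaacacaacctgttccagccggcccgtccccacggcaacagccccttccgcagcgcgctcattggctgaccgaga

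The window 25.3 kb upstream of Dusp4 held 2 RUNX matches on opposite strands, a C/EBP and an ETS match, and that of Spred1 held RUNX, ETS, GATA and C/EBP within its right part. The strongest distal site of the group, upstream of Dusp2, had an ETS and a GATA match and no RUNX match. The start of Dusp5 held 2 CArG boxes side by side and a response element core, and the start of Dusp6 none of the motifs searched. Other windows were searched but are not printed. The strongest shared site of Dusp10 held an ETS match. Those of Spry1, Spry2 and Spred1, and the strongest distal shared site of Spry2, held no match. A match is a string of letters only, and a window without one says nothing of the factor.

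Counted in 200 bp around the strongest summit, 13 of the 22 distal sites of the feedback genes (59.1%) had a RUNX match, against 48.7% of all 11500 distal sites. A site is called distal if its centre was over 1500 bp from every annotated start, which held for 56.4% of the feedback sites and 46.1% of all sites. The longer string TGTGGTT was found at 10 of the 22 (45.5%), against 23.8%. Among shared distal sites, 6 of 12 had a RUNX match, against 53.3% in the genome. The longer string was at 5 of these 12 (41.7% against 26.0%). Among distal sites, the surplus of RUNX matches thus lay in those of 1 list, while the longer string was more frequent at shared ones too. The counts are small and were not tested. RUNX matches were found at 5 of 8 distal +DOX-only sites (62.5% against 47.6%) and 2 of 2 distal -DOX-only sites (against 39.9%). At the 17 sites near a start, 5 had a RUNX match (29.4% against 27.8%) and none the longer string, against 6.01% of all such sites. The AP-1 string stood at 2 of the 39 sites (5.13%), one in an intron of Dusp4 and one upstream of Dusp2, and at 4.97% of all sites. ETS matches were at 16 of the 39 (41.0% against 29.9%) and GATA matches at 5 (12.8% against 11.7%), all of them distal. A PU.1 match was at 4 (10.3% against 4.66%). At the Dusp2 site it overlapped the AP-1 match, the only pair of motifs that shared bases, apart from strings nested in each other. At the 24 shared sites, ETS matches were at 8 (33.3% against 31.4%) and PU.1 at 1 (4.17% against 3.79%). The surplus of both lay mainly in sites of 1 list, with PU.1 at 3 of 11 +DOX-only sites (27.3% against 7.88%). These shares rest on few sites. Over all +DOX-only and -DOX-only sites, AP-1 matches stood at 7.60% and 3.81%, PU.1 at 7.88% and 1.84% and C/EBP at 9.39% and 5.40%. ETS matches stood at 29.7% and 24.3%, and GATA at 9.26% and 16.4%. The paper reports RUNX, AP-1, PU.1 and C/EBP motifs at RUNX1 sites lost with dnFOS, and RUNX, ETS and GATA motifs at gained ones. Which library was treated was not tested with these shares.

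The RefSeq promoter table, which runs from 250 bases before to 50 bases after a start, held 8 of the 10 genes. Dusp4 and Spry4 had no entry. None of the 8 promoters had a RUNX match, which 25.0% of the 27025 genes in the table have, and none an AP-1 match (5.95%). The full cyclic AMP response element TGACGTCA was in the promoter of Dusp1 (2.03% of genes), its core also in that of Dusp5 (8.37%), ETS matches in those of Dusp2, Spry2 and Spred1 (33.8%), and CArG boxes in that of Dusp5 (1.81%).

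Dusp1 encodes the immediate early phosphatase of the nucleus that acts on p38, JNK and ERK. Its start was the strongest of the group's sites near a start by percentile. The pileup in its 5' untranslated region was 51 reads (38.0 to 67.1) in the library labelled +DOX, the 86.5th percentile, and 67 (51.9 to 85.1) in the library labelled -DOX, the 94.7th. The ratio of +DOX over -DOX was 0.795 with an interval of 0.541 to 1.16, so the 2 were not told apart at this depth. The 200 bp around this summit, which reach beyond the RefSeq promoter window, held 2 RUNX matches.

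The site 24.3 kb upstream of Dusp1 had 31 reads in the library labelled +DOX and 28 for the one labelled -DOX (percentiles 68.1 and 72.7, ratio 1.16, 0.671 to 2.00). It lies in an intron only because GENCODE includes a longer transcript of Dusp1, whose own start lies beside that of Ergic1. The GENCODE body is 56539 bp long and the RefSeq body 2882 bp. A site 5.3 kb downstream of the start, in an exon of the non-coding AC122252.2, had 31 reads against 18 (percentiles 65.1 and 15.2). Its ratio of 1.80 was the highest of the group, with an interval of 0.976 to 3.42. The shared site at the start of Ergic1, 593 bp from the start of that longer Dusp1 transcript, was weaker, with 19 and 17 reads. The 3 sites found in 1 list had pileups of 22, 17 and 18.

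Dusp2 encodes a nuclear phosphatase known from activated lymphoid and myeloid cells. The intergenic site 7.5 kb upstream of it had 67 reads (51.9 to 85.1) in the library labelled +DOX, rank 745 of 21831 and the 96.6th percentile. In the library labelled -DOX it had 40 reads (28.6 to 54.5), the 84.6th percentile. The ratio was 1.75 (1.17 to 2.66), or 0.571 (0.376 to 0.858) with the libraries exchanged. This was 1 of 2 shared feedback sites whose interval lay wholly on one side of 1.

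The start of Dusp2 had 28 and 27 reads (ratio 1.08, 0.616 to 1.91), at summits that lay on either side of the start. A weak site 21.5 kb upstream had 17 and 14. The 2 sites in 1 list each were a +DOX-only site 35.3 kb upstream with 22 reads, which carried RUNX, AP-1 and PU.1 matches, and a -DOX-only site of 19 reads in the coding exon of the neighbour Adra2b. The latter overlapped H3K27me3 peaks of both lists.

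Dusp4 encodes a nuclear phosphatase for ERK and JNK. Of its 3 shared sites, all distal, 2 had more reads in the library labelled -DOX and 1 an equal number. The site 25.3 kb upstream had 16 reads (9.15 to 26.0) against 25 (16.2 to 36.9), which are the 22.7th and the 67.0th percentile of their lists. The ratio was 0.669 (0.334 to 1.30). In the intron, 8.1 kb from the start, a site with AP-1, ETS and GATA matches had 16 and 20 reads (ratio 0.836, 0.405 to 1.70), and 1.7 kb from the start both libraries had 18. None of these intervals left out 1.

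The strongest of the group's sites found in 1 list was also at Dusp4, 42.2 kb upstream. It had 27 reads (17.8 to 39.3) in the library labelled +DOX, the 70.8th percentile, and the nearest summit of the other list was 16506 bp away. It was intergenic, with Dusp4 as its nearest start. The reverse case, a -DOX-only site of 12 reads in an intron of Tnks, was at the 2.32nd percentile.

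Dusp5 encodes a nuclear phosphatase specific for ERK. The site at its start, with the 2 CArG boxes, had 34 reads in the library labelled +DOX and 30 for the one labelled -DOX (percentiles 75.5 and 68.8, ratio 1.18, 0.703 to 2.00). The site 7.4 kb upstream showed the lowest ratio of the group, 0.591 (0.275 to 1.22), from 13 reads (6.92 to 22.2) against 23 (14.6 to 34.5), or percentiles of 3.34 and 54.6. Repeat masking in the reference covered 57.0% of its printed window. A -DOX-only summit of 23 reads lay in the coding exon, 372 bp inside the gene. Its peak overlapped the peak of the other list at the start, whose summit was 447 bp away, so it is a separate summit and not a stretch where the other library had no peak.

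Dusp6 encodes the cytoplasmic phosphatase that is specific for ERK and a standard readout of its activity. Both of its shared sites were near the start. The one 107 bp upstream had 35 and 28 reads (percentiles 71.8 and 64.6, ratio 1.31, 0.772 to 2.23) and the one 1.5 kb upstream 22 and 21. A +DOX-only site of 24 reads was found 5.7 kb downstream of the start, beyond the end of the gene, with RUNX, ETS and PU.1 matches.

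Dusp10 encodes a phosphatase for JNK and p38. A shared site at the start of its RefSeq transcript, 109 bp from that of the neighbour 1700056E22Rik, had 32 and 28 reads (percentiles 77.9 and 62.3). In the intron, 32.8 kb from this start, the library labelled +DOX had 21 reads and the library labelled -DOX 27 (percentiles 43.0 and 67.8, ratio 0.813, 0.437 to 1.49). A +DOX-only site of 20 reads lay 7.5 kb upstream of the outer start of the gene, with 3 RUNX and 2 ETS matches.

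Among the Sprouty genes, which act on RAS and RAF below receptor tyrosine kinases, Spry2 had 3 shared sites, all between 624 bp upstream and 1.7 kb downstream of its start, and no others in the window. Their pileups were 50, 50 and 58 reads in the library labelled +DOX and 43, 46 and 53 in the one labelled -DOX, with ratios of 1.21, 1.14 and 1.14. The local background there was also high, 14.4 to 14.8 and 12.7 to 13.8 reads, a level that 0.967% and 1.37% of all peaks in the 2 lists reach. At the other 9 genes it was at most 6.65. Set against that background the same peaks were among the lowest by fold enrichment, from 2.97 to 3.94, which is the 1.46th to the 19.0th percentile, while their -log10 q put them between the 42.0th and the 71.6th.

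Spry1 had a broad shared site at its start, where 3 peaks of the library labelled +DOX and 2 of the library labelled -DOX merged. Their highest pileups were 26 and 25 reads. The site 26.8 kb downstream of the start had 24 and 28 (percentiles 63.3 and 76.0, ratio 0.896, 0.497 to 1.60), and 2 +DOX-only sites far to either side had 15 and 18.

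Spred1, whose product holds neurofibromin at the membrane to switch RAS off, had the fewest sites. Its start had 35 reads (24.4 to 48.7) against 25 (16.2 to 36.9), with a ratio of 1.46 (0.851 to 2.55). The site 28.1 kb upstream had 19 and 20 reads and a ratio of 0.993 (0.501 to 1.96).

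Spry4 was the one gene of the 10 whose start had a RUNX1 summit in 1 list alone. The peak in its 5' untranslated region had 20 reads (12.2 to 30.9) in the library labelled +DOX, the 44.8th percentile, and the nearest summit of the other list was 30413 bp away. Its shared site, 30.4 kb upstream in an intron of the non-coding AC133601.1, was strong in both libraries, with 49 reads (36.3 to 64.8) and 31 (21.1 to 44.0), the 92.2nd and the 80.3rd percentile. The ratio was 1.65 (1.03 to 2.68), or 0.605 (0.373 to 0.969) with the libraries exchanged. The interval holds 1.10, the median ratio of all shared sites, and the ratio of the fold enrichments was 1.31. Its 200 bp held 1 RUNX match, of the longer string.

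**Figure D3:**
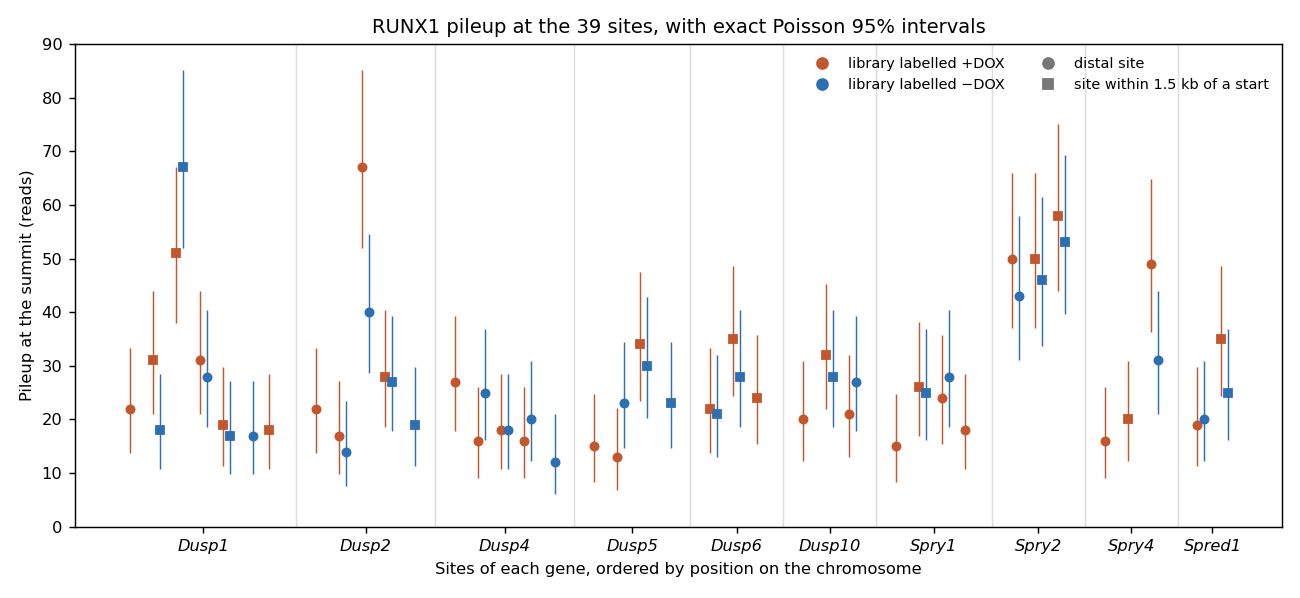
Reads stacked at the summit (y axis) for each of the 39 sites, grouped by gene (x axis), in the library labelled +DOX (orange) and the one labelled -DOX (blue), with exact Poisson 95% intervals. Circles are distal sites and squares sites near a start, and a site with 1 colour was in 1 list. The intervals of the 2 libraries overlap at all 24 shared sites, and the highest values are at the Dusp1 start, upstream of Dusp2 and at Spry2.

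None of the 24 sites reached a 2-fold ratio in either direction. Only sites called in both lists have a ratio, so a site that fell below the threshold in 1 library is outside this count. In the genome 2.56% of 14170 shared sites were 2-fold or more higher in the library labelled +DOX, and 0.367% were so in the other direction. The interval lay wholly above 1 at 2 of the 24, the sites upstream of Dusp2 and Spry4, and below 1 at 0, against 6.51% and 1.14% of all shared sites. The median ratio of the 24 was 1.14, that of all shared sites 1.10, and 17 of the 24 were above 1 (70.8% against 64.7%). Relative to the median of all shared sites, 13 of the 24 were above it. Those near a start were above 1 at 11 of 12 and the distal ones at 6 of 12, while over the genome the shares were 66.8% and 60.9%. The 12 are not 12 separate feedback gene starts. Some were nearest to the starts of AC122252.2, Ergic1 and 1700056E22Rik, and Dusp6 and Spry2 gave 2 each. Against the median ratio of all shared sites, 8 of the 12 near a start and 5 of the 12 distal ones were above it.

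**Figure D4:**
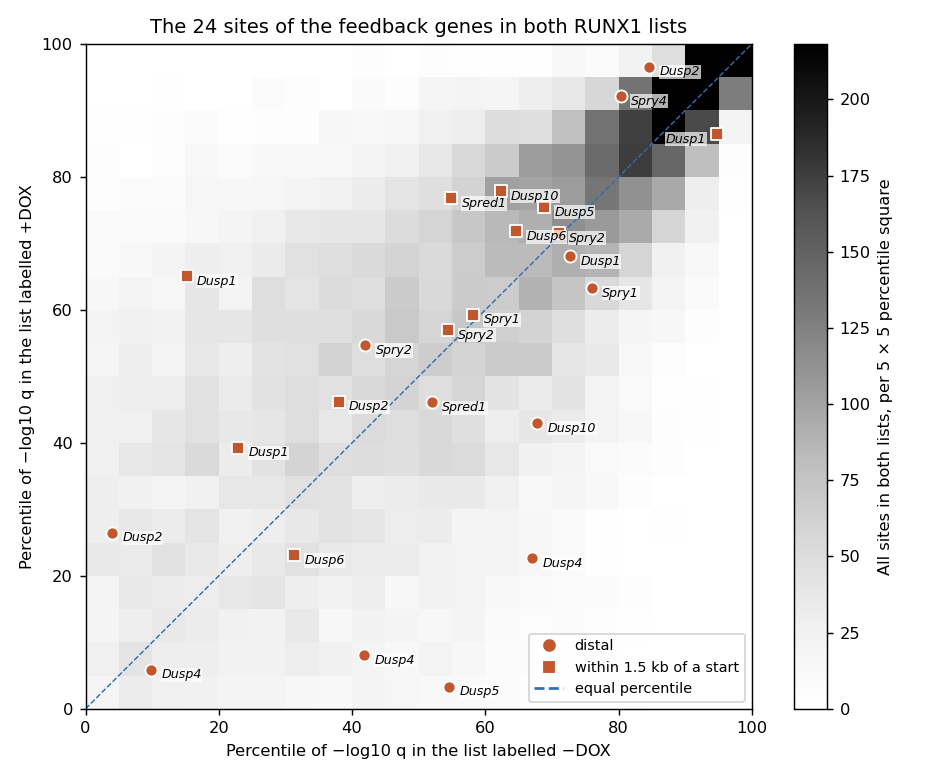
Percentile of -log10 q of the 24 shared feedback sites in the list labelled -DOX (x axis) and in the list labelled +DOX (y axis), over the density of all shared sites in grey. Orange circles are distal sites, squares sites near a start, and the dashed line is equality. Distal sites of Dusp4, Dusp5 and Dusp10 lie below the line and the Dusp1 site 5.3 kb downstream of the start lies above it, at 15.2 and 65.1.

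Sites only in the list labelled +DOX made up 28.2% of the feedback sites and 28.4% of all sites, and sites only in the list labelled -DOX 10.3% and 14.8%. Counted by the nearest start alone, 3 and 0 of 21 feedback sites were of these kinds. By gene, 8 of 10 had a +DOX-only site (all genes 48.0%) and 4 of 10 a -DOX-only site (32.6%), the latter being Dusp1, Dusp2, Dusp4 and Dusp5. The -DOX-only site of Dusp1 is in the window only with the GENCODE gene body. That a site is missing from a list says that no summit passed the caller's threshold there, not that RUNX1 was absent. At the -DOX-only site of Dusp5 the other list had an overlapping peak with its summit elsewhere. The pileups of the sites in 1 list were 12 to 27 reads, and the lowest at a shared site was 13.

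H3K27me3 peaks divided the genes. Neither list had one in the windows of Dusp1, Dusp10, Spry1, Spry2 and Spred1. That says only that no peak passed the caller's threshold there, not that the mark was absent. The lists hold narrow peaks, with a median width of 180 bp (titled untr) and 122 bp (titled DOX). At the other 5 genes, Dusp2, Dusp4, Dusp5, Dusp6 and Spry4, both lists had peaks, against 28.5% of all genes, and at 4 of them within 1500 bp of an annotated start of the gene, against 9.40%. The exception was Dusp2, where all 4 peaks stood at the start and coding exon of Adra2b, 27.3 to 28.1 kb away.

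The peaks were narrow and of modest height. At Dusp6 both lists had a summit in the first intron, 900 bp and 896 bp inside the gene, with 15 reads in the library titled untr and 20 in the library titled DOX (percentiles 49.6 and 74.3), and the latter had a second peak of 15 reads further on. At Dusp5 the library titled untr had 12 reads 417 bp inside the gene and the library titled DOX 18 at 271 bp and 13 at 910 bp. By percentile the peaks near a start were weakest at Dusp4, 13 and 11 reads at 1418 bp and 1468 bp upstream, the 9.02nd and the 14.0th percentile. At Spry4 the library titled untr had 3 peaks of 18, 18 and 20 reads in its intron, 664 bp to 1348 bp from the start, and the library titled DOX 1 of 19 reads at 1252 bp and a further one of 12 reads 28.1 kb downstream of the start.

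**Figure D5:**
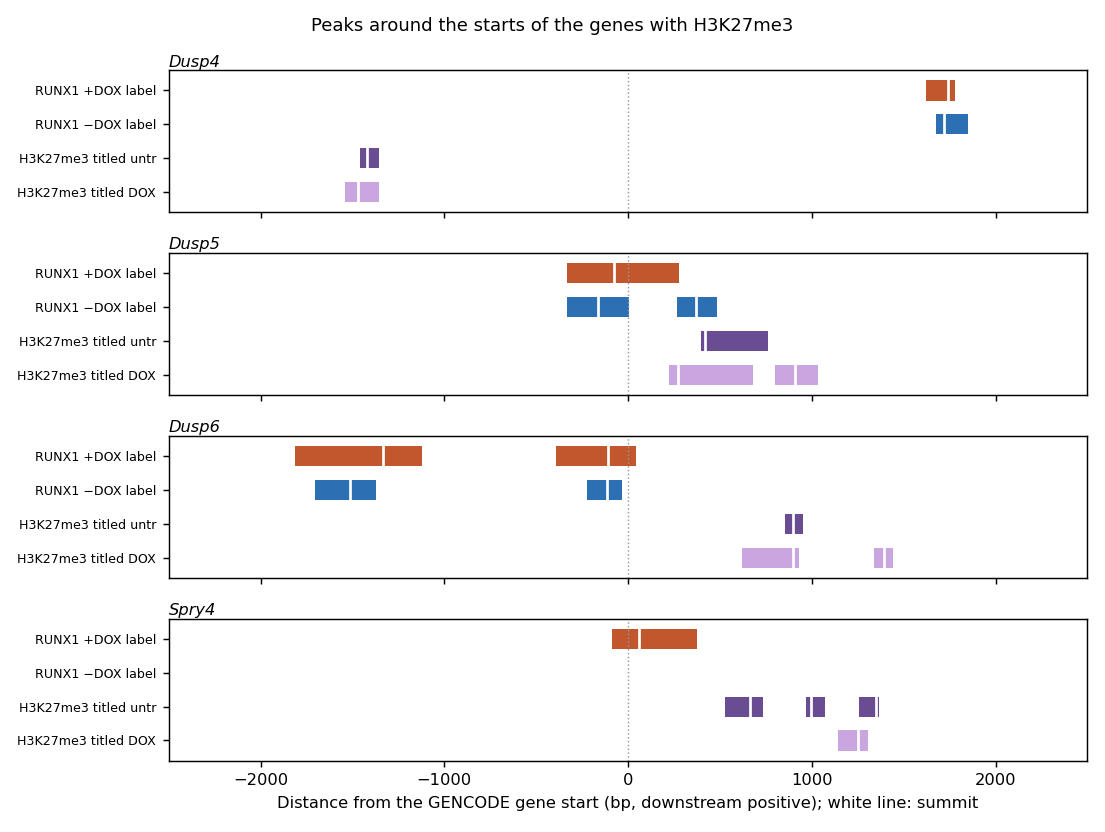
Peaks of the 4 lists (bars, with the summit as a white line) around the starts of Dusp4, Dusp5, Dusp6 and Spry4 (distance from the GENCODE gene start in bp, x axis). RUNX1 peaks reach the starts of Dusp5, Dusp6 and Spry4, with a further -DOX peak inside Dusp5, and H3K27me3 peaks lie downstream of the start. At Dusp4 the order is the opposite.

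The distance between RUNX1 and H3K27me3 peaks differed among these starts. The H3K27me3 summits of Dusp5 were 45 bp to 538 bp from the nearest RUNX1 summit, and the first peak of the library titled DOX there also overlapped the +DOX peak of the shared site. The H3K27me3 summits of Dusp6 were 1003 bp to 1499 bp from the nearest RUNX1 summit, those of Dusp4 3137 bp and 3187 bp, and those in the intron of Spry4 606 bp to 1290 bp. Of the 39 RUNX1 sites, 3 overlapped an H3K27me3 peak within the merged stretch (7.69%), the share found over all sites (7.76%). They were the -DOX-only sites in the exon of Dusp5 and at Adra2b, under peaks of both lists, and the shared site upstream of Spry4, under a peak of 16 reads of the library titled DOX. Peaks of different antibodies in bulk cells may come from different cells or alleles, and these cannot be told apart.

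The other genes of the cascade were taken as a fixed list of 46, of which 45 were measured (Spry3 was not). Of these, 43 had a shared RUNX1 site in the window (95.6%) and 36 within 1500 bp of a start (80.0%), close to the shares among the 10 feedback genes. The median was 5 sites per window. Map2k2, which encodes a MEK kinase, had the most, 11. H3K27me3 in both lists was found at 18 of the 45 (40.0%), and within 1500 bp of a start at 8 (17.8%).

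Those 8 were the phosphatase genes Dusp8 and Dusp14, Spred3, the stress branch kinases Map3k1, Map2k6 and Mapk11, the RAS GTPase activator Rasal3 and the receptor inhibitor Il17rd. Among the 15 genes of the kinase cascade proper and its adaptors, 14 had a shared RUNX1 site near a start (all genes 39.1%) and 0 had H3K27me3 in both lists anywhere in the window (all genes 28.5%). In the same windows, 7 of 9 genes of the stress kinase branch had H3K27me3 in both lists, 6 of 9 of the other phosphatase and Sprouty-related genes, 3 of 6 RAS GTPase activators and 2 of 6 other feedback inhibitors. Of 9 genes that mark blood progenitors, 7 had a shared RUNX1 site in the window (77.8%, all genes 69.4%), so these counts do not tell the cell type. Kit had no site and Ptprc 1 site, in the list labelled +DOX. Of the markers of other cell types, 3 of 3 endothelial, 1 of 3 neuronal, 1 of 2 liver, 1 of 2 muscle and 1 of 2 heart genes had a shared site in the window.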

How the data were processed

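RUNX1 and H3K27me3 ChIP-seq was measured in 4 libraries, 1 per condition, from cells crosslinked with disuccinimidyl glutarate and formaldehyde. The authors trimmed reads, aligned them to mm10, removed PCR duplicates and called peaks with MACS2 at a q threshold of 0.05; the submitters' processing notes name Bowtie2 2.2.9 and MACS2 2.1.1. Those methods describe the RUNX1 libraries, and how the H3K27me3 lists were made is not given in the sources used here beyond these notes. No control library is named. The methods go on to remove peaks in blacklisted and repeat regions and to keep those in DNase I sites; whether the deposited lists come before or after these filters is not given in the sources used here, and each site count and background share rests on the lists as deposited. The deposited peak lists hold a score, the fold enrichment over local background (a ratio), and p and q values as -log10, all as the peak caller wrote them. Per the file headers each list is the track of 1 run.

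The fold is (pileup + 1) / (background + 1) and the p-value a Poisson tail, so the whole-number pileup that satisfies both was solved for each peak with a tolerance of 0.001 in -log10 p. This recovered 99.97%, 99.97%, 99.76% and 99.92% of the peaks in the 4 lists, every peak at the feedback genes included. The recovery, the merging of sites and the motif search were tested on simulated data. Summits were extended by 200 bp and merged. Genes came from GENCODE vM21, promoters from RefSeq. Work was done in Python 3.11.15 with numpy 2.4.6, scipy 1.17.1 and pysam 0.24.0. Peaks on sequences outside the assembled chromosomes, 146 to 300 per list, were left out.

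All 10 genes are named. Of the other cascade genes those are named that had the most RUNX1 sites or H3K27me3 in both lists near a start. Printed sequences are those of the strongest shared site of Dusp2, Dusp4, Dusp5 and Dusp6 and of the strongest site in 1 list. The distal sites of Dusp5, Dusp10 and Spred1 were added after their values were seen. No sequence is shown for Dusp1, Spry1, Spry2 and Spry4. The genes and lists were chosen with earlier results of these data known.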

Additional observations from a re-analysis of the deposited data

How the results depend on the processing

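Of 98 alternative values of 22 results, 69 stayed within 1.5 times the main count or within the interval of the main share. The number of genes with a shared RUNX1 site was 8 to 10 under all settings tried for it, and 0 shared sites were 2-fold apart in either direction whether pileups were scaled by background, by the median ratio (13 of 24 above it) or replaced by fold enrichments (13 of 24 above 1).

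Stricter peaks left fewer RUNX1 sites. Where -log10 q was 10 or more there were 16 sites, 9 of them shared, 5 only +DOX and 2 only -DOX, a difference of 3. With the 10000 strongest peaks of each list there were 22, 11 of them shared, with 6 only +DOX and a difference of 1. A window of 20 kb gave 24 sites, 4 and 1 of them in 1 list, a difference of 3, and the nearest start alone 21, with 3 and 0 and again a difference of 3. With the nearest protein-coding start 1 site was only -DOX, and with 100 kb there were 10. With the libraries exchanged the difference of 7 became -7. H3K27me3 peaks fell to 5 (titled untr) and 4 (titled DOX), at 3 genes in both lists, where -log10 q was 5 or more, and to 5 and 5, at 3 genes, with the nearest start alone. With 100 kb the library titled DOX had 15. RefSeq gene bodies, an alternative chosen after seeing the data, left 36 sites. Those that dropped out were the Dusp1 sites at and beyond the start of Ergic1. The longer RUNX string alone was at 25.6% of the sites, against 46.2% for either form.

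Peak lists hold no reads below the caller's threshold, so the depth behind a site missing from a list is unknown. With 13 to 67 reads at a summit of a shared site, the counting interval of a ratio spanned 1 at 22 of 24 sites.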
